A study of Homo sapiens with 6 samples.

Results

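The genes that encode the nuclear subunits of the mitochondrial respiratory chain and ATP synthase (complexes I to V) were examined in BT-549 cells after NEAT1 silencing. Genes were taken by symbol: NDUFA, NDUFB, NDUFC, NDUFS or NDUFV followed by a digit, SDHA to SDHD, CYC1, and symbols that start with UQCR, COX4 to COX8 or ATP5. Of 92 matching symbols, 6 were dropped (5 hyphenated readthrough or antisense symbols and the pseudogene UQCRBP1), which left 86 of the 25545 genes listed. The rule used symbols and no measured value, but it was chosen with earlier results of these data known.

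BT-549 cells, a long-established line derived from a triple-negative breast cancer (TNBC), were grown in serum-containing medium with insulin. They were transfected with a control siRNA (CsiRNA, 3 libraries) or an siRNA against the lncRNA NEAT1 (NEAT1siRNA, 3 libraries), and RNA for stranded mRNA sequencing was taken at 48 h. Sample titles carry the prefix tet-, although the labels give siRNA as the treatment and name no inducing agent. Per the study's methods the cells were cultured in triplicates, with nothing on separate transfections. The p-values thus measure the spread between these libraries, which may be smaller than that between separate transfections.

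The respiratory chain passes electrons from NADH (complex I) and succinate (complex II) through coenzyme Q and complex III to cytochrome c and complex IV, where oxygen is reduced. Complexes I, III and IV pump protons across the inner mitochondrial membrane, and ATP synthase (complex V) uses the gradient to make ATP. Most subunits are encoded in the nucleus, and a small core is encoded by mtDNA; the 13 mtDNA-encoded subunits were not analysed here. Breast cancer cells use both glycolysis and this chain for ATP.

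NEAT1 was present at 13.4, 7.68 and 10.8 TPM (transcripts scaled to a sum of 1000000 in each library) in the CsiRNA libraries and at 4.36, 2.96 and 2.73 TPM in the NEAT1siRNA libraries, with no overlap. The 5 mesenchymal genes checked summed to 1490 to 1684 TPM with CsiRNA and 1364 to 1585 TPM with NEAT1siRNA, with overlap. Single genes of this list went both lower and higher with NEAT1siRNA without overlap. Among them, the vimentin gene VIM was at 859 to 1112 TPM in the 6 libraries. ESR1 was listed at 0 in all of them, PGR reached at most 0.0068 TPM and EPCAM at most 0.030 TPM. ERBB2 was at 5.76 to 6.36 TPM and KRT18 at 1.04 to 2.07 TPM. The summed level of the 5 epithelial genes was 1.24 to 1.83 TPM with CsiRNA and 1.84 to 2.47 TPM with NEAT1siRNA, without overlap, and its part in the results was not tested. The T cell gene CD3E and the endothelial genes CDH5 and VWF were listed at 0. The 5 haematopoietic genes summed to at most 0.42 TPM in a library and the 4 endothelial genes to at most 0.071 TPM. Depth, recovered from the deposited tables, was 15787143 to 20342700 reads per library. The short noncoding RNAs RN7SK, RN7SL1, RN7SL2 and RPPH1 held 64.4% to 68.1% of TPM in a library but only 2.30% to 3.01% of its recovered reads, and so set the TPM scale of every other gene.

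Many promoters of respiratory chain genes are known to be bound by NRF1, by ETS family factors such as GABPA, and by YY1. Promoter windows of 250 bases before to 50 after each start (RefSeq, GRCh38.p14) were found for 68 of the 86 genes and searched on both strands. The words were GCGCATGCG for NRF1, CCGGAAG for ETS factors and AAGATGGC for YY1, the ETS word ending in the letters AAG with which the YY1 word begins. The NRF1 word was held by 11 of the 68 genes (16.2%) and by 2.34% of all genes with a window. This word was settled after a first search with a longer word, which fewer genes held. The ETS word was held by 20 (29.4%, against 12.2% of all genes) and the YY1 word by 12 (17.6%, against 3.52%). The 27305 genes with a window were not limited to genes expressed in these cells, so that these shares compare unlike sets. A match is a description of letters and does not show binding. Windows of 30 bases are shown for the 4 genes NDUFA5, NDUFS7, COX5B and ATP5I, whose differences between groups are among the largest in the positive direction below, and for SDHD and ATP5C1 as genes of complexes II and V with the NRF1 word. Capitals mark the word, and on the opposite strand the NRF1 word reads CGCATGCGC.

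NDUFA5, NRF1 word, chr7:123557957-123557986, minus strand: tatgcccatcGCGCATGCGtcaatttttct
NDUFS7, NRF1 word, chr19:1383823-1383852, plus strand: ttccggtttcCGCATGCGCtccgagccgct
NDUFS7, YY1 word, chr19:1383913-1383942, plus strand: aggccgaggccAAGATGGCggtgctgtcag
COX5B, ETS word, chr2:97646014-97646043, plus strand: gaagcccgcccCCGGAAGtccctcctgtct
ATP5I, NRF1 word, chr4:674335-674364, minus strand: gccgctgacgGCGCATGCGtgcgcccagct
SDHD, NRF1 word, chr11:112086753-112086782, plus strand: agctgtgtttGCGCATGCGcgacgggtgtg
ATP5C1, NRF1 word, chr10:7788145-7788174, plus strand: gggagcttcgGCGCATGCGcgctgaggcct

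The 11 genes with the NRF1 word did not move in 1 direction. On the log2(TPM + 1) scale, NEAT1siRNA minus CsiRNA ran from -0.16 for ATP5J, a stalk subunit of ATP synthase, to 0.19 for NDUFA5, with -0.06 for ATP5C1 and 0.12 for SDHD, and none passed the threshold.

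Of the 86 genes, 79 had a mean of at least 1 TPM over the 6 libraries and were tested. These were 36 genes of complex I, 4 of complex II, 10 of complex III, 13 of complex IV and 16 of complex V. The counts include COX7A2L (complex IV) and ATP5S (complex V), whose current symbol is DMAC2L. Both were taken by symbol, which does not show that a gene encodes a structural subunit. COX4I2, COX6A2, COX7B2 and COX8C, which encode isoforms used mainly in lung, muscle or testis, were listed at 0 in every library. NDUFA4L2, COX6B2 and ATP5L2 were listed above 0 but below the minimum, with CsiRNA means of 0.51, 0.043 and 0.27 TPM and NEAT1siRNA means of 0.55, 0.031 and 0.19 TPM. NDUFA4 and its paralog NDUFA4L2 were placed in complex IV, where the NDUFA4 protein resides.

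The chain was expressed at high levels. The median of the 79 genes was 42.6 TPM, with a range from 2.94 TPM for ATP5E to 784 TPM for COX7C, and 23 genes were over 100 TPM while 7 were under 10. The median over all 10721 genes tested was 9.10 TPM. Median levels were 34.9 TPM for complex I, 44.6 TPM for complex II, 35.0 TPM for complex III, 109 TPM for complex IV and 79.5 TPM for complex V. Transcripts were short, with a median length of 804 bases against 3348 for all genes tested, and a median GC content of 47.2% against 47.3%. A gene had between 10.5 and 9083 recovered reads per library on average, with a median of 896, so that the highest TPM values do not stand for the most reads. Several of these genes have near-identical copies elsewhere in the genome, and how reads shared between copies were counted is not given in the sources used here, so that levels between genes are less certain than differences between groups.

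**Figure D1:**
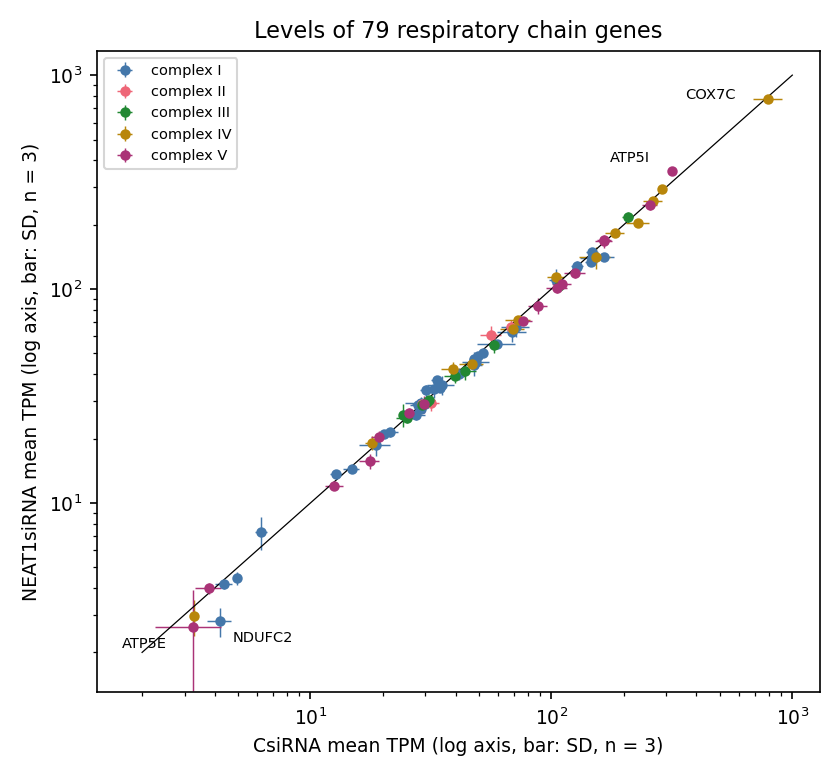
Mean TPM of the 79 tested genes in NEAT1siRNA against CsiRNA libraries, on log axes, colored by complex, with bars for the SD over 3 libraries and a line of equal level. Points lie along the line from ATP5E at the bottom to COX7C at the top, and NDUFC2 sits below it.

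The question of the comparison was whether NEAT1 silencing is accompanied by a change in these transcripts. It was not detected for 78 of the 79 genes. NDUFC2 encodes an accessory subunit of the complex I membrane arm and lies within a readthrough gene, at a mean of 3.50 TPM. It was lower with NEAT1siRNA at an adjusted p under 0.05, and no gene was higher. That is 1.27% of the genes tested here, against 14% of all 10721 genes (8.98% lower and 4.99% higher; limma with Benjamini-Hochberg adjustment over all genes). In these bulk samples, fewer cells of a kind and less RNA per cell cannot be told apart.

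The median difference of the 79 genes was -0.03 on the log2(TPM + 1) scale, beside -0.04 for all genes tested. There were 52 genes with a negative and 27 with a positive difference, beside 6507 and 4214 of all 10721 genes tested. Medians were -0.03 for complex I, -0.02 for complex II, -0.03 for complex III, -0.03 for complex IV and -0.05 for complex V. At an unadjusted p under 0.05 there were 3 genes (NDUFC2, NDUFB9 and ATP5I), beside 27.4% of all genes tested. The groups did not overlap for 6 genes, or 7.59%, beside 30.3% of all genes. In NEAT1siRNA libraries 3 were lower (NDUFC2, NDUFB9, NDUFV3; 19.3% of all genes) and 3 higher (NDUFB11, NDUFS7, ATP5I; 11.0% of all genes).

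The SE and intervals are moderated, which draws the variance of each gene towards that of genes of similar level. They were mostly similar from gene to gene and do not stand for the spread of each gene alone. The 95% confidence interval reached a median of 0.19 to either side on the log2 scale, and lay within 0.5 of 0 for 77 of the 79 genes, NDUFC2 and ATP5E being the exceptions, beside 86.2% of all genes.

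The number of genes called depended on the scaling, while NDUFC2 was called lower under each scaling run. With the 4 short RNAs left out and TPM rescaled to a sum of 1000000, 2 genes were lower (NDUFC2 and NDUFB9) and 2 were higher (NDUFB11 and NDUFS7), beside 19.5% of all genes (11.0% lower and 8.57% higher). Centring each library on its median gave 1 lower and 3 higher genes, COX5B being added to NDUFB11 and NDUFS7, beside 19.7% of all genes (8.9% lower and 10.8% higher). Quantile normalization gave 2 lower (NDUFC2, NDUFB9) and 1 higher (NDUFS7), beside 20.4% of all genes (10.3% lower and 10.1% higher). Under median centring and quantile normalization the median difference of the 79 genes turned positive, to 0.02 and 0.01. The median of all genes tested was then 0.013 and -0.0017. Of all genes, other settings called 13.8% (pseudocount 0.1), 2.73% (no filter), 14.3% (mean TPM of at least 5), 13.9% (no trend in eBayes) and 15.3% (replicate block), with at most 1 of the genes described here. Leaving out 1 library called 7.08%, 12.0% or 13.2% of all genes for CsiRNA replicates 1 to 3 and 13.7%, 19.4% or 7.82% for NEAT1siRNA replicates 1 to 3, with 1 to 3 of the genes described here. With a trend on GC content and length removed from each library 9 genes were called, 2 lower (NDUFC2, NDUFB9) and 7 higher (NDUFB11, NDUFC1, COX5B, ATP5I, NDUFA5, UQCRHL and COX5A), beside 33.3% of all genes (16.9% lower and 16.4% higher). With the replicate number as a block in the same fit the counts were again 2 and 7, with COX6A1 in place of COX5A, beside 32.5% of all genes (16.4% lower and 16.1% higher). Voom on recovered reads called 1 gene lower and 1 higher, beside 23.4% of all genes (11.8% lower and 11.6% higher), and voom scaled by size factors 1 lower and 2 higher, beside 23.0% (11.9% lower and 11.1% higher).

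**Figure D2:**
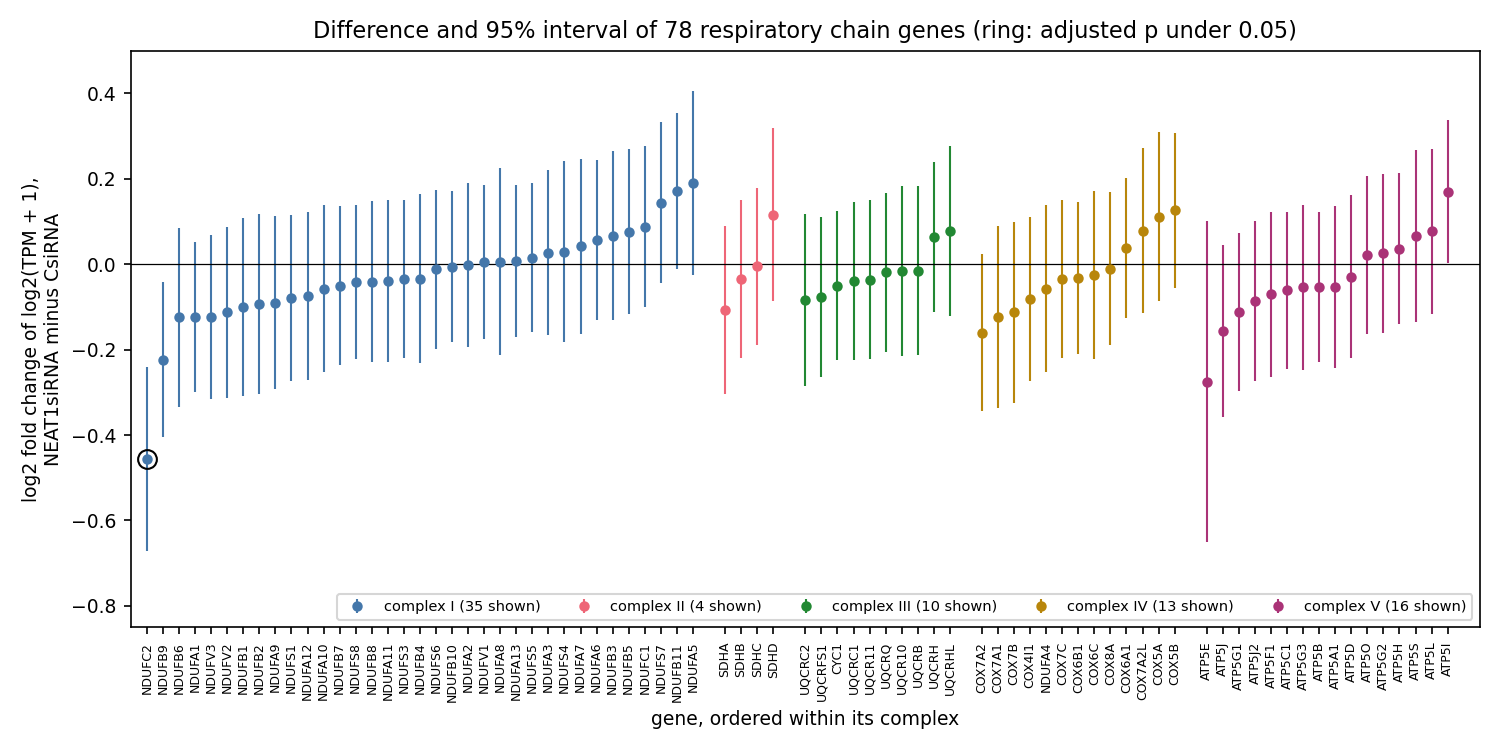
Difference in log2(TPM + 1), NEAT1siRNA minus CsiRNA, with its 95% confidence interval for 78 of the 79 tested genes, ordered within complexes. Only NDUFC2 is ringed as past the threshold, and the interval of ATP5E is the widest.

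Complex I takes electrons from NADH. Of its 36 tested genes, 22 had a negative and 14 a positive difference, beside 6507 and 4214 of all genes tested. NDUFC2 was the gene past the threshold. NDUFC2 was at 4.56, 4.39 and 3.66 TPM with CsiRNA and at 3.23, 2.35 and 2.82 TPM with NEAT1siRNA. Each NEAT1siRNA library was below each CsiRNA library. The mean fell from 4.20 ± 0.478 to 2.80 ± 0.441 TPM (SD, n = 3), a log2 difference of -0.46 (SE 0.10, 95% interval -0.67 to -0.24, adjusted p = 0.0042, limma). The difference lay between -0.54 and -0.37 when each library was left out in turn, with an adjusted p under 0.05 each time. With no filter on TPM the adjusted p was 0.103. With a pseudocount of 0.1 in place of 1 the log2 difference was -0.57, as adding 1 draws differences at low TPM towards 0.

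NDUFC2 was among the lowest of the 79 genes in level, with a mean of 177 recovered reads per library. The gene (chr11:78068297-78079862, minus strand, GRCh38) lies wholly within the readthrough gene NDUFC2-KCTD14 (chr11:78016971-78079865), which is listed at 0 in every library. Reads from the shared exons cannot be told apart by gene, so that the level of NDUFC2 and its difference between groups are both uncertain. NDUFC1, the partner subunit of NDUFC2 in the same arm, was at 12.8 ± 0.678 and 13.6 ± 0.524 TPM, a log2 difference of 0.09 (SE 0.09).

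NDUFB9, an accessory subunit of the distal membrane arm, was at 181, 166 and 149 TPM with CsiRNA and at 142, 140.5 and 140.5 TPM with NEAT1siRNA. Its NEAT1siRNA values were all lower, but near CsiRNA replicate 3. The log2 difference was -0.22 (SE 0.09, 95% interval -0.41 to -0.04), which did not pass the threshold (adjusted p = 0.092, limma) but passed it without CsiRNA replicate 3. NDUFV3, a small accessory subunit of the NADH-oxidizing module, was at 4.88, 4.79 and 5.12 TPM against 4.44, 4.76 and 4.15 TPM. NEAT1siRNA replicate 2 nearly reached CsiRNA replicate 2, and the log2 difference was -0.12 (SE 0.09, adjusted p = 0.427, limma).

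NDUFB11, a further distal arm subunit, was at 34.1, 34.8 and 31.3 TPM with CsiRNA and at 38.4, 36.7 and 38.1 TPM with NEAT1siRNA. NDUFS7, a core subunit that carries the last iron-sulfur cluster before coenzyme Q, was at 31.7, 30.9 and 28.2 TPM against 32.0, 36.0 and 32.6 TPM. Both were higher in each NEAT1siRNA library than in any CsiRNA library. The log2 differences were 0.17 (SE 0.09, adjusted p = 0.217) for NDUFB11 and 0.14 (SE 0.09, adjusted p = 0.329, limma) for NDUFS7. Both passed the threshold in the rescaled table without the 4 short RNAs, with adjusted p of 0.046 for each. NDUFA5, in the arm that faces coenzyme Q, was at 6.39, 6.50 and 5.83 TPM against 6.20, 8.71 and 7.07 TPM, with groups that overlapped. Its log2 difference was 0.19 (SE 0.10, adjusted p = 0.244, limma), and voom on the recovered reads called it higher (0.27, adjusted p = 0.034).

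The differences of NDUFV1 and NDUFS1, further core subunits of complex I, were small. NDUFV1, which holds the NADH site, was at 34.4 ± 1.20 TPM with CsiRNA and 34.5 ± 0.361 TPM with NEAT1siRNA. NDUFS1, with the most iron-sulfur clusters, was at 27.4 ± 2.54 and 25.8 ± 1.45 TPM. Their log2 differences were 0.00 and -0.08, each smaller than its SE of 0.09. The most abundant complex I transcripts were NDUFB9, NDUFS5 (147.0 ± 8.43 and 148 ± 2.87 TPM) and NDUFA12 (148 ± 16.9 and 140.0 ± 12.2 TPM). By part of the complex, the median log2 difference was -0.01 for the 10 genes of the NADH module, -0.04 for the 6 of the coenzyme Q module, 0.01 for the 9 of the proximal arm and -0.04 for the 11 of the distal arm.

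**Figure D3:**
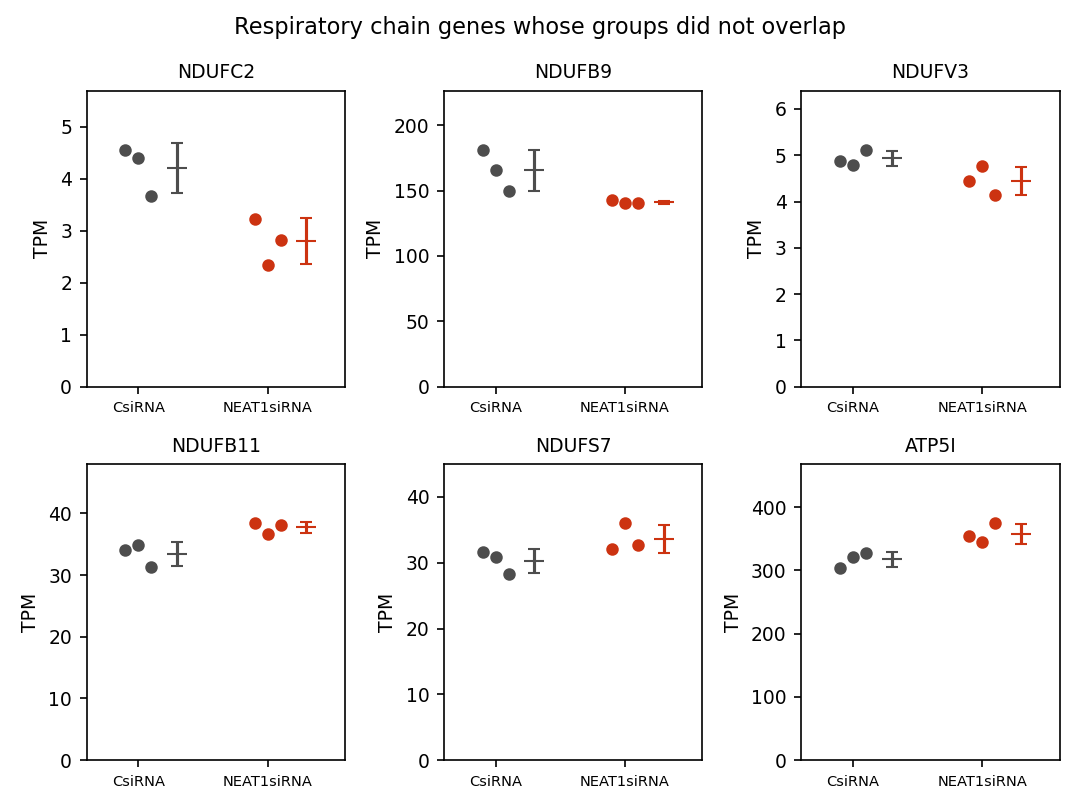
TPM in each library for the 6 genes whose CsiRNA and NEAT1siRNA values did not overlap, with points for libraries and bars for mean and SD over 3. NDUFC2 shows a gap between groups, while the NEAT1siRNA values of NDUFB9, NDUFV3, NDUFS7, NDUFB11 and ATP5I lie closer to the nearest CsiRNA value.

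Complex II oxidizes succinate and is encoded wholly in the nucleus. SDHA, the flavoprotein, was at 34.4, 31.4 and 29.5 TPM with CsiRNA and at 30.7, 31.2 and 26.5 TPM with NEAT1siRNA. SDHB, the iron-sulfur subunit, was at 69.7, 69.5 and 64.3 TPM against 66.7, 71.1 and 61.0 TPM. The membrane anchor SDHC was at 30.7, 28.5 and 27.9 TPM against 29.7, 28.8 and 28.3 TPM. The groups overlapped for each of them. The second anchor, SDHD, was at 59.3, 59.8 and 49.6 TPM against 55.2, 67.7 and 60.2 TPM, with the largest complex II difference in the positive direction. On the log2 scale, differences were -0.11 for SDHA, -0.04 for SDHB, 0.00 for SDHC and 0.12 for SDHD, with SE of 0.09 to 0.10 and no adjusted p below 0.480 (limma).

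Complex III passes electrons from coenzyme Q to cytochrome c. None of its 10 tested genes had groups that did not overlap, and log2 differences ran from -0.08 to 0.08. CYC1, the cytochrome c1 subunit, was at 107 ± 4.40 TPM with CsiRNA and 104 ± 1.94 TPM with NEAT1siRNA. The Rieske iron-sulfur protein gene UQCRFS1 was at 57.8 ± 2.54 and 54.8 ± 4.71 TPM, and the core protein gene UQCRC1 at 30.6 ± 1.99 and 29.7 ± 0.855 TPM. UQCRC2, the other core protein, had the largest negative difference (-0.08, SE 0.10, adjusted p = 0.634, limma). UQCRH, the hinge protein, was the most abundant at 207 ± 10.8 and 217 ± 12.2 TPM. Its intronless copy UQCRHL was at 24.3 ± 0.537 and 25.8 ± 3.12 TPM, and reads of this near-identical pair may be split between them.

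Complex IV reduces oxygen. COX7C, the most abundant of the 79 genes, was at 850, 869 and 668 TPM with CsiRNA and at 752, 793 and 770.1 TPM with NEAT1siRNA. All 3 NEAT1siRNA values lay between CsiRNA replicate 3 and the other controls. The log2 difference was -0.03 (SE 0.09). COX6A1 (287 ± 3.39 and 295 ± 4.67 TPM) and COX6B1 (264 ± 23.5 and 258 ± 8.17 TPM) followed in level, while the partner isoforms COX6A2 and COX6B2 were at 0 or near it. COX4I1, which assists early assembly and ATP sensing, was at 69.2 ± 7.73 and 65.1 ± 2.30 TPM with its partner COX4I2 at 0.

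The largest complex IV differences were those of COX7A2 and COX5B. COX7A2, the ubiquitous isoform of a small subunit, was at 246, 241 and 201 TPM with CsiRNA and at 202, 209.6 and 202 TPM with NEAT1siRNA. Only CsiRNA replicate 3 was at the level of the NEAT1siRNA libraries, and the log2 difference was -0.16 (SE 0.09, adjusted p = 0.254, limma). Without CsiRNA replicate 3 the gene passed the threshold. Its muscle isoform COX7A1 was at 3.28 ± 0.037 and 2.96 ± 0.564 TPM, and COX7A2L, which helps to form supercomplexes, at 18.0 ± 1.19 and 19.1 ± 1.45 TPM. COX5B, a zinc-binding subunit on the matrix side, was at 113, 97.2 and 102 TPM against 112, 118 and 111 TPM, with overlap through CsiRNA replicate 1. Its log2 difference was 0.13 (SE 0.09, adjusted p = 0.381, limma), and 0.20 with the GC and length trend removed (adjusted p = 0.014, limma). COX5A, a partner of COX4I1 in assembly, differed by 0.11 (SE 0.10) and COX6C by -0.03 (SE 0.10).

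Complex V couples proton flow to ATP synthesis. The catalytic beta subunit gene ATP5B was at 257 ± 19.0 TPM with CsiRNA and 247 ± 12.0 TPM with NEAT1siRNA, with the most recovered reads of the 79 genes (9083). The alpha subunit gene ATP5A1 was at 105 ± 10.7 and 101.2 ± 5.54 TPM, and ATP5C1, the central shaft, at 111 ± 9.82 and 106 ± 3.26 TPM. All 5 genes of the F1 head had negative log2 differences, as had 6507 of all 10721 genes tested. The median of the 5 was -0.05, beside -0.04 for all genes tested, with no adjusted p below 0.352 (limma). The largest of the 5 differences was that of ATP5E, the epsilon subunit, at -0.27 (SE 0.18). It was at 3.96, 2.11 and 3.71 TPM against 2.84, 3.80 and 1.22 TPM, with full overlap, and rests on a mean of 10.5 recovered reads. It passed the threshold without CsiRNA replicate 2 (-0.49) or without NEAT1siRNA replicate 2 (-0.51). The log2 difference was 0.04 without NEAT1siRNA replicate 3 (adjusted p = 0.917, limma) and -0.15 without CsiRNA replicate 1, so that single libraries set its direction and size.

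ATP5I, a small membrane subunit tied to dimers of the enzyme, was at 304, 321 and 328 TPM with CsiRNA and at 354, 344 and 374 TPM with NEAT1siRNA. Each NEAT1siRNA library was above each CsiRNA library. The means were 318 ± 12.0 and 357 ± 15.5 TPM, but the log2 difference of 0.17 (SE 0.08) did not pass the threshold over all genes (adjusted p = 0.176, limma). It passed with the GC and length trend removed, at 0.31 (adjusted p = 0.017, limma, or 0.0038 with the block as well). The 3 genes for the same mature c-ring protein differed in level. ATP5G1 was at 76.4 ± 6.73 and 70.5 ± 2.43 TPM, ATP5G2 at 25.7 ± 0.641 and 26.2 ± 1.63 TPM, and ATP5G3 at 12.6 ± 1.06 and 12.1 ± 0.383 TPM. Their order was the same in every library, and none passed the threshold (log2 differences -0.11, 0.03 and -0.05, each SE 0.09). ATP5H, of the peripheral stalk, was at 166 ± 11.3 and 170.0 ± 6.06 TPM. ATP5J2 also lies wholly within a readthrough gene, ATP5J2-PTCD1, which is listed at 0.

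CsiRNA replicate 3 had the lowest of the control values for 69 of the 79 genes, against 59.0% of all genes tested. Against the CsiRNA mean of each gene, the median of the 79 was 0.08, 0.04 and -0.11 on the log2 scale in the CsiRNA libraries and -0.03, 0.02 and -0.09 in the NEAT1siRNA libraries. The spread within a group was thus larger than the difference between groups. With the 4 short RNAs left out of the scaling, these medians lay between -0.04 and 0.02. CsiRNA replicate 3 was then lowest for 47 genes, and the share of all genes was not worked out on this scale. The median of complex IV stayed at -0.07 in CsiRNA replicate 3, against 0.04 and 0.05 in the other controls. The 4 RNAs held 67.7% of TPM in CsiRNA replicate 3 and 64.4% and 65.6% in the other controls; their part in the result was not tested beyond this rescaling.

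**Figure D4:**
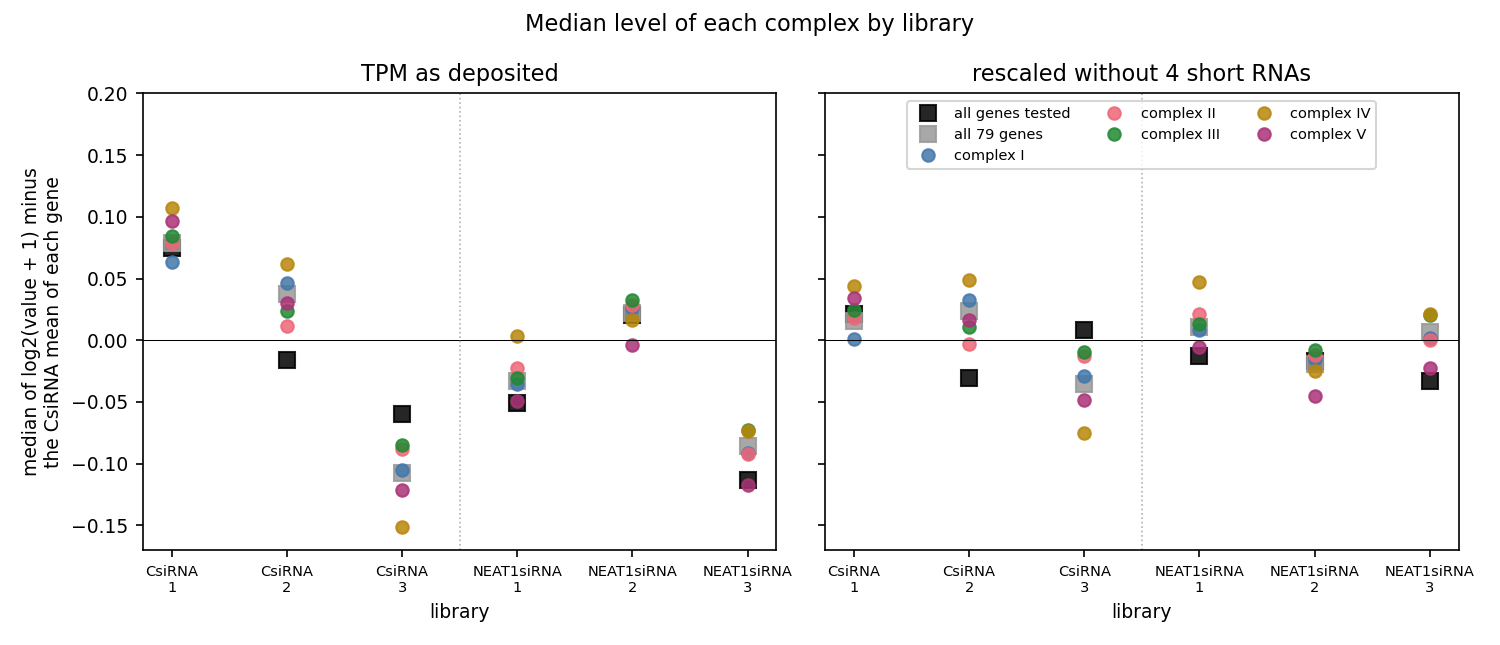
Median over each complex of log2(value + 1) minus the CsiRNA mean of each gene, by library, for TPM as deposited (left) and after rescaling without 4 short RNAs (right). CsiRNA replicate 3 and NEAT1siRNA replicate 3 are low for all complexes on the left. On the right the medians over all 79 genes lie between -0.04 and 0.02, with complex IV at -0.07 in CsiRNA replicate 3.

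The summed level of the 79 genes was 6469.7 ± 489 TPM with CsiRNA and 6365 ± 182 TPM with NEAT1siRNA, or 98.4% of control. Without the 4 short RNAs it was 18948 ± 596 and 19094 ± 383 on the rescaled scale, or 100.8%. By complex the sum in NEAT1siRNA libraries was 97.0% of control for complex I, 100.4% for II, 99.8% for III, 97.5% for IV and 100.5% for V. Each of these differences in deposited TPM was smaller than the SD of the control libraries. On the rescaled scale the sums were 99.3% of control for complex I, 102.7% for II, 102.1% for III, 99.99% for IV and 102.9% for V. Those of II, III and V were higher by more than the SD of the control libraries. The groups still overlapped for III (1729 to 1770 with CsiRNA, 1744 to 1826 with NEAT1siRNA) and V (4413 to 4532 and 4433 to 4735). For II they did not overlap (530 to 550 and 551 to 567). No test was run on these sums.

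The other genes of the pathway gave few calls. The 9 lists held 124 genes, among them the 13 mtDNA-encoded subunits, for which no TPM value was found. TPM values were found for 109 genes, and 105 were tested. Of these, 6 were lower and 2 higher at an adjusted p under 0.05 (limma), beside 8.98% and 4.99% of all genes. The other lists covered assembly factors, coenzyme Q synthesis, mitochondrial biogenesis regulators, tricarboxylic acid (TCA) cycle enzymes and subunits with other symbols. None of 15 complex I assembly factors, 4 ATP synthase factors or 5 subunits and carriers outside the symbol rule passed.

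Among assembly factors, COX10, which farnesylates heme for complex IV, was at 17.1, 15.9 and 15.1 TPM with CsiRNA and at 12.1, 11.6 and 10.9 TPM with NEAT1siRNA. The groups did not overlap, and the log2 difference was -0.44 (SE 0.09, adjusted p = 0.0020, limma). SCO2, a copper chaperone for complex IV, fell by 0.28 (SE 0.10, adjusted p = 0.049) and BCS1L, which inserts the Rieske protein into complex III, by 0.28 (SE 0.10, adjusted p = 0.046) on the log2 scale. These were 2 of 22 complex IV and 1 of 10 complex II and III assembly factors. SCO2 lost the call in 4 and BCS1L in 5 of the 6 fits that left out a library.

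Of 14 biogenesis regulators, 3 were lower. TFB2M, a transcription factor for mtDNA, was at 22.1, 19.97 and 17.2 TPM against 13.1, 15.6 and 12.8 TPM, a log2 difference of -0.48 (SE 0.10, adjusted p = 0.0024). The coactivator genes PPRC1 and PPARGC1B, relatives of PGC-1 alpha, fell by 0.35 (SE 0.10, adjusted p = 0.018) and 0.32 (SE 0.10, adjusted p = 0.037). PPRC1 lost its call without CsiRNA replicate 1 (and without NEAT1siRNA replicate 3), and PPARGC1B without CsiRNA replicate 1, CsiRNA replicate 3 or NEAT1siRNA replicate 3.

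The higher genes were IDH2 and COQ7. IDH2, the mitochondrial NADP-dependent isocitrate dehydrogenase, was at 8.55, 8.12 and 8.15 TPM with CsiRNA and at 12.9, 13.5 and 12.3 TPM with NEAT1siRNA. All NEAT1siRNA libraries were well above the controls, with a log2 difference of 0.58 (SE 0.09, adjusted p = 8.26e-05), and it was the single TCA cycle gene called of 18. COQ7, a hydroxylase of coenzyme Q synthesis, rose by 0.32 (SE 0.09, adjusted p = 0.025), 1 of 17 in its list, and lost its call without CsiRNA replicate 1, CsiRNA replicate 3 or NEAT1siRNA replicate 3. COX10, TFB2M and IDH2 passed in every fit that left out a library, and with no filter on TPM only COX10 and IDH2 of the 8 kept the call.

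**Figure D5:**
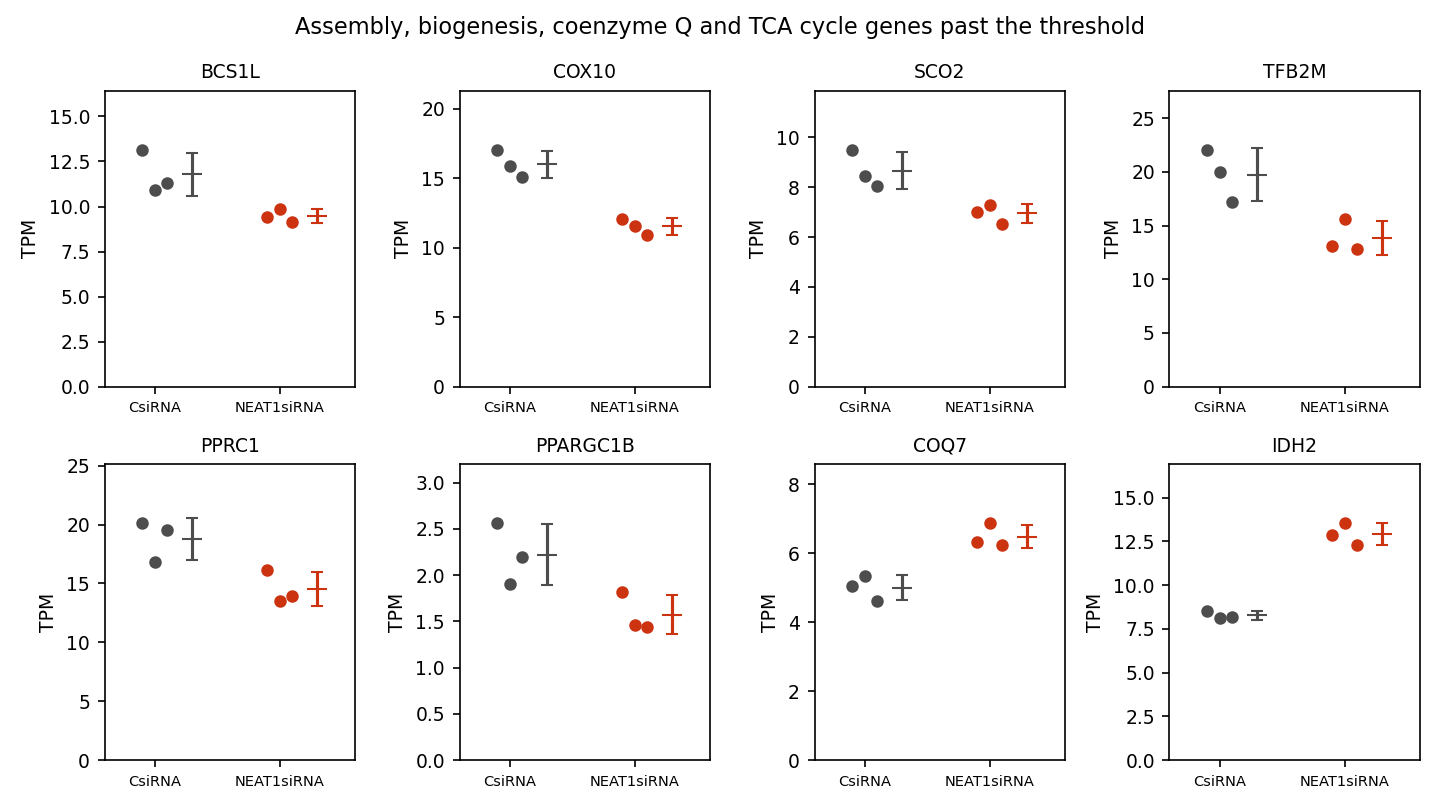
TPM in each library for the 8 pathway genes past the threshold, with points for libraries and bars for mean and SD over 3. BCS1L, COX10, SCO2, TFB2M, PPRC1 and PPARGC1B lie lower and COQ7 and IDH2 higher in all NEAT1siRNA libraries.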

How the data were processed

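RNA-seq of 6 BT-549 libraries was analysed from tables that the authors deposited. Per the study's methods, stranded mRNA libraries were aligned with STAR to GRCh38 and compared with DESeq2, and the submitters' processing notes name the same tools. The read counter and annotation are not given in the sources used here. In the expression table, the authors give TPM for 25545 genes, with a sum of 1000000 for each library. The authors' comparison table holds a mean normalized count per gene (a deposited signal, counts scaled by size factors and averaged), besides fold changes and p-values of their own comparison, which were not used. All per-library columns were used.

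Values were analysed as log2(TPM + 1) for the 10721 genes whose mean was at least 1 TPM. Groups were compared with lmFit and eBayes (trend) of limma 3.58.1 in R 4.3.3, two-sided, with no covariate, and Benjamini-Hochberg adjustment over all genes tested at 0.05. SE are moderated. With 3 libraries against 3 an exact permutation test cannot go below p = 0.1 and was not used. Joining both tables gave reads per gene: 99.8% of the values of the 5043 least abundant genes were whole (tolerance 0.05), and 15.4% of those of the 6400 most abundant, so that reads of abundant genes are approximate. Chi-square tests gave at least 4.58 per degree of freedom between replicates, so no library was a copy of another. Genes were matched to GENCODE 44 (GRCh38.p14), 69 of 86 by current and 17 by older symbol. Python 3.11.15, numpy 2.4.6, pandas 2.3.3 and matplotlib 3.10.9 were used. The procedure was tested on simulated data. The NRF1 word was shortened by 1 letter after a first search with a longer word, which fewer genes held.

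Members and lists were chosen with earlier results of these data known. Genes named by rule were those past the threshold (at most 20), the 3 most abundant and the 2 with the largest difference in each complex, core subunits, isoform sets, called pathway genes (at most 4 per list), NEAT1 and genes below the minimum level. NDUFV3, NDUFB11, NDUFA5, NDUFC1, ATP5J and ATP5J2 were named after their values were seen. The result of 1 gene named by the rule and of 1 marker is not reported here. Alternatives changed the pseudocount, filter, scaling, test, threshold, replicate block and libraries used.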

Additional observations from a re-analysis of the deposited data

How the results depend on the processing

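The count of the 79 respiratory chain genes past the threshold was 1 and the count of pathway genes 8. The first became 0 with no filter on TPM (0 of 82 genes tested), 0 with a mean TPM of at least 5 (where NDUFC2 is removed, and 73 remained) and 0 with a minimum log2 fold change of 0.5 in size. It became 4 with the 4 short RNAs left out, 4 with median centring, 3 with quantile normalization, 2 with voom on recovered reads and 3 with voom scaled by size factors, an alternative chosen after seeing the data. Removing a trend on GC content and length in each library gave 9 (2 lower and 7 higher), and 9 with the replicate block as well. Leaving out each library in turn gave 1 to 3. For pathway genes the count was 2 with no filter, 3 at an adjusted p under 0.01, 1 at the minimum fold change, 25 with the trend removed, 17 with the trend removed and the replicate block, and 3 to 15 with a library left out, 3 without NEAT1siRNA replicate 3 and 4 without CsiRNA replicate 1. The calls over all genes were 1498 as reported, 505 with no filter, 2504 with voom, 2466 with voom scaled by size factors, 3468 with the trend removed (3391 with the block), 759 without CsiRNA replicate 1 and 838 without NEAT1siRNA replicate 3. The cause was not tested. With the replicate number as a block the counts were 1 and 9. Same-numbered libraries deviated together with correlations of -0.03, 0.25 and -0.11, and other pairs with -0.40 to 0.40. With 3 libraries per group these values do not settle whether the numbers pair the samples. The median difference of the 79 genes ran from -0.08 to 0.02 over the alternatives. No named gene reversed its direction while called: over 842 values of named genes under alternatives, 793 kept their side of the threshold, 29 lost it and 20 gained it. NDUFC2 was called lower in 17 of 19 fits. Depth limits ATP5E (10.5 reads) and COX7A1 (34.3 reads).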
